A study of Mus musculus with 8 samples.

Results

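The Id genes Id1, Id2, Id3 and Id4 were taken from an RNA-seq table of primary murine cardiac fibroblasts by their gene symbols, and these 4 genes were 4 of the 22274 in the table. Cultures had been transduced with a control vector (labelled GFP) or with a vector for interferon regulatory factor 7 (labelled OEIRF7), and both groups had received TGF-β at 5 ng/ml for 24 h, so that no library shows the cells without TGF-β. Each group held 4 libraries, and the one comparison of the design, OEIRF7 against GFP, asks which transcripts differ when IRF7 is supplied to TGF-β-treated fibroblasts. The sources differ on the vector (adenovirus or adeno-associated virus), and the adenoviral IRF7 is listed under a human name with a CMV promoter. The labels do not say whether the 4 libraries of a group came from separate animals or cultures, so the p-values below measure the spread between these libraries only.

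Id proteins (inhibitors of DNA binding) carry a helix-loop-helix but no DNA-binding basic region. They pair with the E proteins, which are the common partners of tissue-specific basic helix-loop-helix (bHLH) factors, and the pair cannot bind the E-box. Their transcripts are classic immediate targets of BMP signalling through SMAD1 and SMAD5, whereas TGF-β, the main profibrotic cytokine of the heart, can lower or raise them depending on cell and time. In cardiac development Id1, Id2 and Id3 are expressed in the epicardium and endocardial cushions rather than in the myocardium.

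Assigned counts per library ranged from 24888589 to 27095611 in GFP and from 24454801 to 28658826 in OEIRF7, with TMM scaling factors of 0.989 to 1.01. Mouse Irf7 had 2861, 3680, 2272 and 3291 counts in the GFP libraries and 385, 421, 380 and 404 in the libraries labelled OEIRF7, or 118 ± 23.96 and 15.2 ± 0.822 CPM (counts scaled by library total and TMM, mean ± SD, n = 4). Its log2 fold change was -2.96 (SE 0.12, edgeR adjusted p = 7.7e-11), which goes against the label. Reads of a human IRF7 transgene may be missed by the mouse gene model, so these counts cannot check the transgene, and directions below are those of the libraries labelled OEIRF7.

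All 4 genes lie on different chromosomes of the GRCm38 assembly. Id1 (ENSMUSG00000042745) spans chr2:152736251-152737410 on the plus strand, Id2 (ENSMUSG00000020644) chr12:25093799-25097140 on the minus strand, Id3 (ENSMUSG00000007872) chr4:136143497-136145755 on the plus strand, and Id4 (ENSMUSG00000021379) chr13:48261228-48266026 on the plus strand. The first annotated coding transcript of Id1 has 2 exons, and those of Id2, Id3 and Id4 have 3 each. No annotated gene overlaps Id1, Id2 or Id3. The 5′ end of Id4 is overlapped on the opposite strand by the antisense gene A330033J07Rik and the lincRNA Gm49291, and neither is among the genes counted. The paper names a stranded mRNA kit, whereas the labels name another kit. Since the strand setting of the counting is not given in the sources used here, reads from the overlap cannot be assigned to a strand with certainty.

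RefSeq promoter windows (GRCm38.p6, 250 bases before to 50 bases after the start) were found for 3 of the 4 genes, and Id1 had no entry. They are shown to describe matches to short SMAD-binding sequences near the starts. Whether any of these matches carries BMP input was not tested. GGCGCC, the GC-rich element bound by SMAD1 and SMAD5, was present once in the Id2 window, 231 bases before the start, and once in the Id4 window, 148 bases before it. Across all 32851 RefSeq windows of the same length 11.9% held it on either strand. The stretches around it are given 5′ to 3′ on the strand of the gene with the element in capitals, for Id2 at chr12:25096254-25096342 (minus strand), an intronic stretch of the longest annotated Id2 transcript, and for Id4 at chr13:48260866-48261115 (plus strand), upstream of the annotated gene.

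Id2 promoter: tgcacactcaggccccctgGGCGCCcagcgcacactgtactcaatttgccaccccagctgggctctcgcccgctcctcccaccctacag

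Id4 promoter: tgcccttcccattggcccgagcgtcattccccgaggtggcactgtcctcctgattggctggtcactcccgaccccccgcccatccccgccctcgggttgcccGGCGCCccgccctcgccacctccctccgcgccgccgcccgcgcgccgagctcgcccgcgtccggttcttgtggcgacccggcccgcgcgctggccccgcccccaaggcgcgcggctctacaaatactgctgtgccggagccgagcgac

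The Id3 window held no GGCGCC but held GTCTG, the short SMAD box, 2 times, on the plus strand 68 bases before the RefSeq start and on the minus strand 167 bases before it. GTCTG was in 49.6% of all windows. The plus-strand copy is capitalised in the 30 bases at chr4:136143742-136143771 (plus strand), which another annotated Id3 transcript places in the 5′ UTR.

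Id3 SMAD box: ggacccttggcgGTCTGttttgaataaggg

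An interferon regulatory factor core, AANNGAAA, was in 23.9% of all windows and matched on neither strand of the Id2, Id3 or Id4 window, and the longer paired form, in 3.44% of windows, did not match either. An E-box, CANNTG, was in 72.3% of all windows and in that of Id2 only among the 3, 196 bases before the start. The short cyclic AMP site TGACG (20.8% of windows) was found once each in Id3 and Id4, on the minus strand 170 and 229 bases before the start, the full site TGACGTCA (1.79%) and TATAAA (13.6%) in none of the 3, and the GC box GGGGCGGGG (11.4%) once in Id4, on the minus strand 55 bases before the start. Such matches describe letters in a window and no binding was measured.

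All 4 Id genes were lower in the libraries labelled OEIRF7, and each had enough counts to be tested. In the edgeR fit over 13533 genes, 58.9% of genes passed an adjusted p of 0.05 in either direction, 29.9% as lower and 29.0% as higher. Passing that test alone was thus common. The 4 Id genes had a median log2 fold change of -0.99, against 0.00153 over all tested genes. In bulk RNA, fewer cells expressing a gene and less RNA of it per cell cannot be told apart.

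Id1, best known from BMP-treated endothelium and epithelium, had 21.6, 18.9, 20.7 and 19.8 CPM in GFP 1 to 4 and 11.6, 10.5, 8.56 and 12.5 CPM in OEIRF7 1 to 4. Every OEIRF7 library lay below every GFP library, and OEIRF7 3 was the lowest of the 8. The means were 20.3 ± 1.16 and 10.8 ± 1.70 CPM (SD, n = 4), and the log2 fold change was -0.91 (SE 0.096, 95% interval -1.12 to -0.71, edgeR adjusted p = 1.19e-06). About 53.2% of the GFP level remained.

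Id2, the member that also binds the retinoblastoma protein, had 32.5, 33.3, 33.5 and 30.2 CPM in GFP and 22.1, 19.1, 20.6 and 22.6 CPM in OEIRF7. The groups did not overlap, and the libraries of each group lay close together. Means were 32.4 ± 1.51 and 21.1 ± 1.55 CPM (SD, n = 4), with a log2 fold change of -0.62 (SE 0.062, 95% interval -0.75 to -0.49, edgeR adjusted p = 6.96e-07). At 65.1% of the GFP level, Id2 kept the largest share of the 4 genes.

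Id3, which overlaps with Id1 in function during vascular and cardiac development, had 49.97, 59.3, 45.5 and 46.9 CPM in GFP and 26.2, 24.2, 21.8 and 23.4 CPM in OEIRF7. GFP 2 was the highest library, and again no OEIRF7 library reached the GFP range. Means were 50.4 ± 6.22 and 23.9 ± 1.84 CPM (SD, n = 4), and the log2 fold change was -1.07 (SE 0.080, 95% interval -1.25 to -0.90, edgeR adjusted p = 3.25e-08), so that 47.5% of the GFP level remained.

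Id4, the most divergent member and best known from neural and mammary cells, was counted 128, 92, 106 and 111 times in GFP and 30, 34, 23 and 41 times in OEIRF7. These are 4.78, 3.69, 4.29 and 4.23 CPM against 1.16, 1.17, 0.903 and 1.66 CPM. The lowest GFP library stood well above the highest OEIRF7 library, although counts this small carry more counting error than those of the other members. Means were 4.25 ± 0.447 and 1.23 ± 0.317 CPM (SD, n = 4), the log2 fold change was -1.79 (SE 0.18, 95% interval -2.19 to -1.40, edgeR adjusted p = 9.74e-07), and 28.8% of the GFP level remained.

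**Figure D1:**
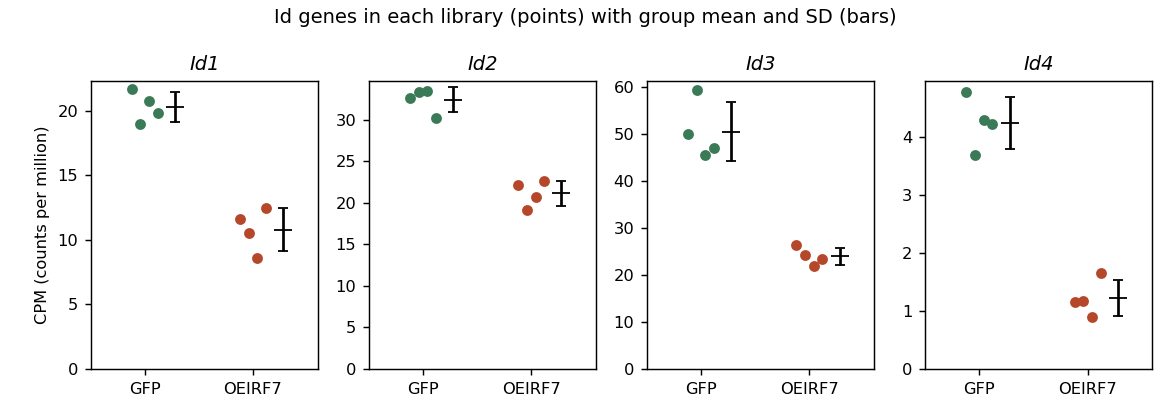
CPM of Id1, Id2, Id3 and Id4 in each library (points), with the mean and SD of the 4 libraries of each group, GFP and OEIRF7. In every panel the 4 OEIRF7 points lie below the 4 GFP points, and the gap in proportion to the level is widest for Id4 (28.8% of GFP remaining) and narrowest for Id2 (65.1%).

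The 2 groups did not overlap for 4 of the 4 genes, a pattern found in this direction for 27.0% of tested genes, and an exact two-sided permutation test over libraries gave p = 0.029 for each, the smallest value that 4 against 4 allows. Id3 and Id4 also fell by more than 1 on the log2 scale, as did 3.89% of tested genes. By fold change, 0.636% of tested genes had a lower value than Id4, 3.38% than Id3, 4.81% than Id1 and 9.51% than Id2.

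The members did not all change by the same amount. Each pair was compared within libraries by the log2 ratio of CPM, in which scaling cancels, with an exact two-sided permutation test and adjustment over the 6 pairs. On the log2 scale, Id4 fell further than Id1 by 0.84 (SE 0.09) and further than Id2 by 1.14 (SE 0.17), and Id2 fell less than Id3 by 0.45 (SE 0.11) and less than Id1 by 0.30 (SE 0.11), each with an exact permutation p of 0.029 and an adjusted p of 0.043. Without OEIRF7 3 the distance between Id1 and Id2 shrank from -0.30 to -0.20. The difference between Id3 and Id4 was 0.69 (SE 0.22, exact permutation p = 0.057, adjusted p = 0.069), and that between Id1 and Id3 was 0.15 (SE 0.15, exact permutation p = 0.429), or 0.04 without GFP 2 and 0.07 without OEIRF7 4. Neither passed the threshold, and a spread of this size leaves room for a difference.

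Levels were compared between genes in FPKM, which divides by transcript length. In GFP the order was Id3 at 39.05 ± 4.86, Id2 at 25.4 ± 1.20, Id1 at 21.3 ± 1.19 and Id4 at 1.09 ± 0.115 FPKM (SD, n = 4), and no 2 neighbours in it overlapped. In OEIRF7 the order of the means was the same, at 18.9 ± 1.55, 16.9 ± 1.23, 11.6 ± 1.81 and 0.323 ± 0.0869 FPKM, but Id3 (17.1 to 20.8) and Id2 (15.3 to 18.01) now overlapped, while Id2 and Id1 (9.16 to 13.3) did not. Among all tested genes in GFP, 85.4% had a lower FPKM than Id3, 77.7% than Id2, 73.7% than Id1 and 17.7% than Id4. These fibroblasts thus carried 3 Id transcripts at moderate levels and Id4 near the low end.

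**Figure D2:**
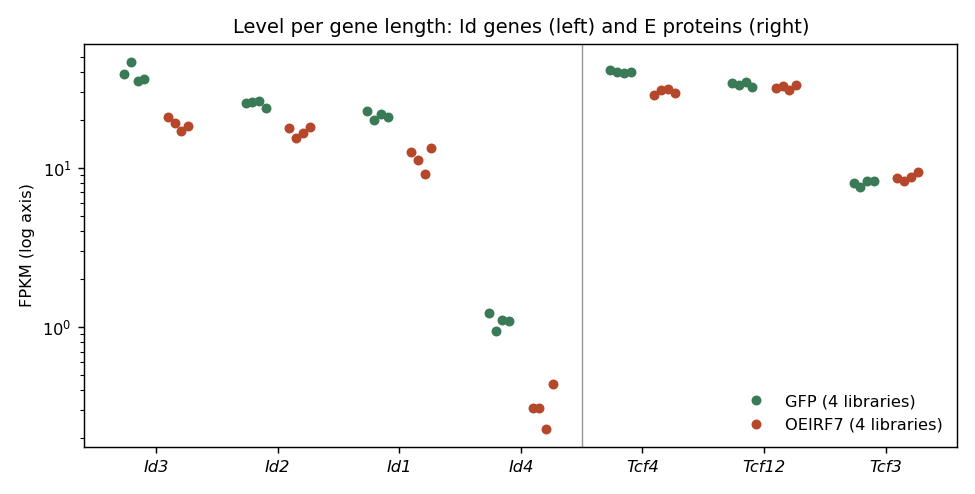
FPKM of the 4 Id genes and of the E protein genes Tcf3, Tcf4 and Tcf12 in each library on a log axis, by group. In GFP, Id3 lies beside Tcf4 and Tcf12, Id2 and Id1 lie between these and Tcf3, and Id4 lies far below them at 1.09 FPKM in GFP and 0.323 in OEIRF7.

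Of the E protein genes, whose products Id proteins bind, 2 of 3 were called lower, as were 29.9% of all tested genes. Tcf4, which encodes E2-2, had 144, 133, 134 and 132 CPM in GFP against a mean of 99.2 ± 4.01 CPM in OEIRF7, with a log2 fold change of -0.45 (SE 0.040, edgeR adjusted p = 2.1e-07). Tcf12, which encodes HEB, went from 125 ± 2.29 to 118 ± 2.80 CPM, a log2 fold change of -0.09 (SE 0.033, edgeR adjusted p = 0.0303). That call was lost without GFP 1, GFP 3, OEIRF7 1 or OEIRF7 3, with adjusted p up to 0.088, and with library size as the only scaling (-0.06, edgeR adjusted p = 0.12). It was also lost with limma on FPKM (-0.06, limma adjusted p of 0.20 to 0.22). Tcf3, which encodes E12 and E47, stood at 23.2 ± 1.01 and 24.8 ± 1.33 CPM, a log2 fold change of 0.10 (SE 0.058, 95% interval -0.02 to 0.22, edgeR adjusted p = 0.152).

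As a description, the summed FPKM of the 4 Id genes ran from 81.8 to 93.1 in GFP and from 42.9 to 51.4 in OEIRF7, while that of the E protein genes ran from 80.2 to 83.5 and from 69.0 to 72.1. The ratio of the sums was 1.06, 1.15, 1.03 and 1.02 in the GFP libraries and 0.745, 0.643, 0.606 and 0.695 in the OEIRF7 libraries. Transcripts of both families were thus about level in GFP, with fewer Id than E protein transcripts in each OEIRF7 library. Within the Id sum, Id3 held 41.8 to 49.4% in GFP and 36.8 to 41.6% in OEIRF7, Id2 28.04 to 31.2% and 33.3 to 38.3%, Id1 21.5 to 25.8% and 21.3 to 26.5%, and Id4 1.02 to 1.40% and 0.536 to 0.877%. The share of Id2 was higher in each OEIRF7 library than in any GFP library.

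**Figure D3:**
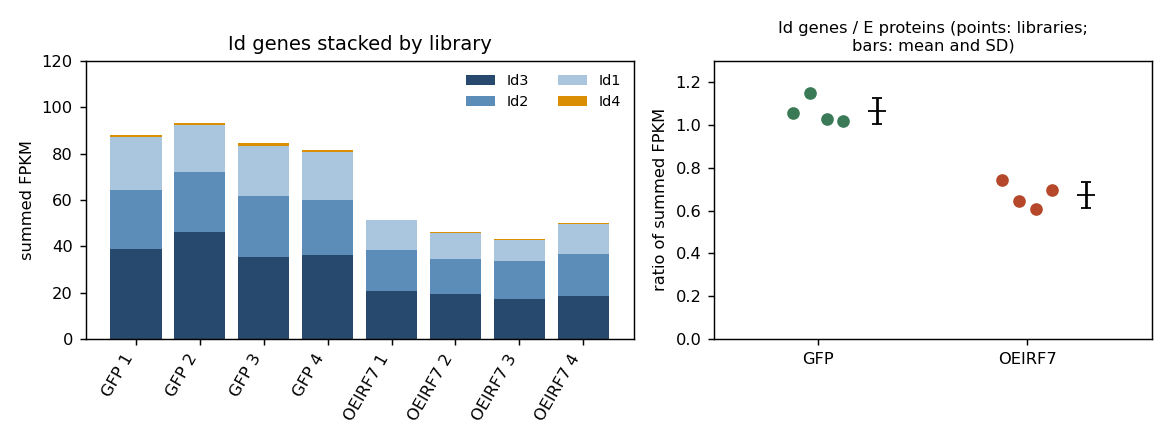
Summed FPKM of the Id genes in each library, divided by gene (left). The right panel shows the ratio of that sum to the summed FPKM of the 3 E protein genes, with group mean and SD. The Id sum lies at 81.8 to 93.1 in the GFP libraries and at 42.9 to 51.4 in the OEIRF7 libraries, and Id3 and Id2 make up most of it in each library.

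Genes of tissue bHLH factors were next described, in a list that is not limited to partners of the E proteins. Of 16 listed genes 10 were tested, 6 were lower and 2 higher, beside 29.9% lower and 29.0% higher over all tested genes. With DESeq2, or without GFP 2, 3 or 4 or OEIRF7 4, 1 was higher. Here and below, a gene is given as higher by or lower at its log2 fold change, OEIRF7 against GFP, and levels in brackets are the GFP and OEIRF7 means in CPM. Tcf21, the epicardial and fibroblast bHLH factor, had 59.3, 66.5, 52.9 and 54.3 CPM in GFP and 24.2, 23.9, 18.1 and 26.3 CPM in OEIRF7, with no overlap and a log2 fold change of -1.33 (SE 0.095, edgeR adjusted p = 2.04e-08). Scx (scleraxis), which promotes collagen expression in tendon and fibroblasts, was lower at -1.46 (10.9 to 3.98 CPM) and Msc (musculin) at -0.97 (3.42 to 1.74 CPM). Bhlhe40, a bHLH repressor of the hypoxia and clock pathways, was higher by 1.06 (167 to 349 CPM), whereas its paralogue Bhlhe41 was lower at -0.45 (26.6 to 19.5 CPM). The edgeR adjusted p of these 4 was at most 0.00119. The Bhlhe41 call was lost with limma on log2(FPKM + 1) without a filter (-0.4, limma adjusted p = 0.13).

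Genes of the BMP branch, the main known input to Id transcription, moved in both directions. Of 14 ligand genes 7 were tested, 4 were higher and 2 lower, with a median log2 fold change of 0.13, where 29.0% of all tested genes were higher and 29.9% lower. Bmp4 and Bmp6, both ligands that activate SMAD1 and SMAD5, were the lower ones. Bmp4 had 49.7, 60.2, 51.4 and 49.8 CPM in GFP and 19.1, 17.8, 15.5 and 19.3 CPM in OEIRF7, a log2 fold change of -1.56 (SE 0.077, edgeR adjusted p = 4.09e-10). Bmp6 had 104, 107, 93.0 and 106 CPM in GFP and 33.6, 31.5, 23.0 and 33.5 CPM in OEIRF7, a log2 fold change of -1.75 (SE 0.090, edgeR adjusted p = 6.13e-10). In both genes each OEIRF7 library was below each GFP library.

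The higher ligands other than Bmp1 started from low levels. Bmp2, which uses the same receptors as Bmp4, had 3.43, 4.13, 4.94 and 4.5 CPM in GFP and 13.0, 13.3, 14.8 and 12.5 CPM in OEIRF7, a log2 fold change of 1.66 (SE 0.11, edgeR adjusted p = 6.49e-09). Bmp5 was higher by 1.32 (0.951 to 2.37 CPM), Bmp8a by 0.58 (2.35 to 3.53 CPM) and Bmp1, a procollagen protease rather than a signalling ligand, by 0.13 (357 to 391 CPM). The edgeR adjusted p of these 3 was at most 0.0101. Gdf6, the ligand with the most counts, stood at 629 and 584 CPM with a log2 fold change of -0.11 (edgeR adjusted p = 0.0793), and it passed without GFP 4 (-0.13, edgeR adjusted p = 0.041).

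Of 14 secreted BMP antagonist genes 10 were tested, and each of the 10 was called, 5 higher and 5 lower, where 58.9% of all tested genes were called, 29.0% higher and 29.9% lower. Grem1 (gremlin 1), which binds BMP2 and BMP4, had 4.67, 3.85, 6.28 and 4.88 CPM in GFP and 18.9, 18.5, 26.3 and 18.3 CPM in OEIRF7, a log2 fold change of 2.06 (SE 0.14, edgeR adjusted p = 1.69e-08). Nbl1 was higher by 1.03 (37.6 to 76.9 CPM) and Nog (noggin) by 0.85 (0.850 to 1.54 CPM). Fst (follistatin), which mainly binds activins, was lower at -0.95 (149 to 77.4 CPM) and Fstl1 at -0.96 (2149 to 1107 CPM). Apart from Nog, the edgeR adjusted p of those named was at most 1.69e-08. The call for Nog (edgeR adjusted p = 0.0266) was lost without GFP 1, 2 or 4 or OEIRF7 1 or 4, with values of 0.66 to 0.85 and adjusted p up to 0.095. It was also lost with limma on log2(FPKM + 1) without a filter (0.35, limma adjusted p = 0.098).

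Of 12 receptor and co-receptor genes 10 were tested, 2 were lower and 1 higher, with a median of -0.05, beside 29.9% and 29.0% of all tested genes. Bmpr1a, the widely expressed type I receptor, was lower at -0.28 (171 to 141 CPM), the co-receptor gene Neo1 at -0.66 (231 to 146 CPM), and Bmpr1b, a type I receptor at low level here, was higher by 0.98 (8.40 to 16.6 CPM), with edgeR adjusted p of at most 1.11e-05. The other 4 tested receptors had log2 fold changes of 0.09 for Acvr1, -0.06 for Acvrl1, 0.05 for Bmpr2 and -0.05 for Acvr2a, with edgeR adjusted p of 0.0763, 0.219, 0.237 and 0.401. The other 3 tested co-receptors stood at -0.05 for Eng, -0.16 for Rgma and -0.01 for Rgmb, with edgeR adjusted p of 0.339, 0.103 and 0.821. Acvr1 passed without OEIRF7 2 (0.12, edgeR adjusted p = 0.026) and with library size as the only scaling (0.12, edgeR adjusted p = 0.023), and Rgma passed without GFP 2 (-0.20, edgeR adjusted p = 0.043).

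Among the SMADs of this branch, the log2 fold changes were 0.04 for Smad1 (95% interval -0.07 to 0.16, edgeR adjusted p = 0.497), 0.01 for Smad5 (95% interval -0.08 to 0.10, edgeR adjusted p = 0.828) and 0.08 for the shared partner Smad4 (95% interval -0.01 to 0.17, edgeR adjusted p = 0.117), which passed with library size as the only scaling (0.11, edgeR adjusted p = 0.039). Smad9, itself a BMP-induced gene, was lower at -0.89 (SE 0.13, 5.76 to 3.11 CPM, edgeR adjusted p = 4.6e-05). These are transcript levels, and the phosphorylation that activates SMAD proteins was not measured.

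Other textbook BMP targets divided in the same comparison. Of 14 listed genes 13 were tested, 6 were lower and 3 higher, with a median of -0.14, beside 29.9% and 29.0% of all tested genes. With DESeq2, 4 were lower, and without GFP 1, 2 were higher. Smad9 and Nog, given above, are in this list too, and Smad6, Smad7 and Bambi also count among the pathway brakes below. Smad6, an inhibitory SMAD that feeds back on BMP signalling, had 76.5, 79.8, 71.8 and 73.4 CPM in GFP and 26.3, 24.5, 20.3 and 29.8 CPM in OEIRF7, a log2 fold change of -1.58 (SE 0.082, edgeR adjusted p = 7.02e-10). Atoh8, a bHLH gene induced by BMP in endothelium, had 22.2, 22.2, 22.9 and 22.7 CPM in GFP and 7.29, 6.997, 8.64 and 7.54 CPM in OEIRF7, a log2 fold change of -1.57 (SE 0.072, edgeR adjusted p = 2.17e-10). Both lay between Id3 and Id4 in size of change, with no overlap of groups.

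Hey2, a bHLH repressor of the Notch and BMP pathways, was lower at -0.84 (3.92 to 2.18 CPM, edgeR adjusted p = 0.00047). Bambi, a pseudoreceptor that blocks BMP and TGF-β receptors and is itself induced by both ligands, was higher by 1.64 (4.14 to 12.9 CPM, edgeR adjusted p = 1.75e-08), and the inhibitory Smad7 by 0.39 (66.3 to 87.1 CPM, edgeR adjusted p = 7.13e-07). Of the 10 inhibitory SMADs and other pathway brakes, all tested, 7 were higher and 2 lower, where 29.0% and 29.9% of all tested genes were. The ubiquitin ligase genes Smurf2 and Smurf1 were higher by 0.77 and 0.26 and the corepressor gene Tgif1 by 0.70, with edgeR adjusted p of at most 2.92e-06.

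**Figure D4:**
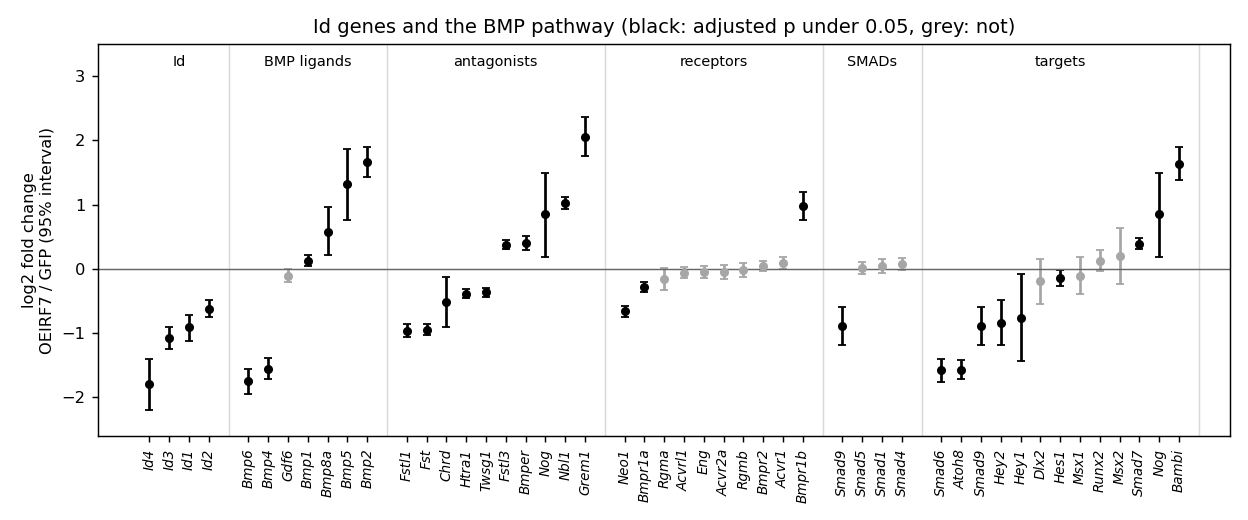
Log2 fold changes, OEIRF7 against GFP, with 95% intervals for the Id genes and for tested genes of the BMP branch, grouped by role. The Id genes lie at -0.62 to -1.79 with Bmp4, Bmp6, Smad6 and Atoh8 on the same side, Grem1, Bmp2 and Bambi lie on the other side, and Smad1, Smad5 and Smad4 lie at 0.01 to 0.08.

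TGF-β itself was present in both groups, and the 8 tested ligand, receptor and SMAD genes of its own branch were 5 lower and 3 higher, beside 29.9% and 29.0% of all tested genes. Tgfb1 was higher by 1.33 (63.9 to 161 CPM), whereas Tgfb2 was lower at -1.55 (91.5 to 31.2 CPM) and Tgfb3 at -0.77 (153 to 89.6 CPM). The receptor genes Tgfbr1 and Tgfbr3 were higher by 0.46 and 0.61 and Tgfbr2 lower at -0.58. The edgeR adjusted p of these 6 was at most 4.55e-06. The SMAD genes of this list were lower by little, at -0.19 and -0.09 (edgeR adjusted p = 0.0133 and 0.0493). With limma on log2(FPKM + 1), 3 genes of the list were lower. Of 13 TGF-β target genes 6 were higher and 5 lower, so that 11 of the 13 were called, against 58.9% of all tested genes. Acta2, which encodes smooth muscle actin of the myofibroblast, was lower at -1.83 (2061 ± 74.3 to 581 ± 46.1 CPM, SD, n = 4, edgeR adjusted p = 1.23e-12), while Il11 was higher by 1.73 (4.03 to 13.3 CPM, edgeR adjusted p = 5.75e-07). The other targets called lower changed little, with log2 fold changes from -0.16 to -0.11.

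Among 8 genes that E proteins or loss of Id are known to switch on, 5 were higher and 1 lower, with a median of 0.30. Over all tested genes, 29.0% were higher and 29.9% lower. Cdkn2a and Cdkn2b were not called, with edgeR adjusted p of 0.827 and 0.436. Gadd45a, a growth arrest gene, was higher by 1.33 (12.6 to 31.7 CPM), the cell cycle inhibitor genes Cdkn1c and Cdkn1a by 0.66 (1.95 to 3.09 CPM) and 0.28, Thbs1, the antiangiogenic thrombospondin repressed by Id1, by 0.46 (1937 to 2661 CPM), and Klf2 by 0.32, with edgeR adjusted p of at most 0.00659. The lower one was Cdkn1b at -0.13 (edgeR adjusted p = 0.0256), whose call was lost without GFP 3 (-0.09, adjusted p = 0.10) or OEIRF7 1 or 4 (-0.13 in each, adjusted p = 0.060 and 0.054) and with library size as the only scaling (-0.10, adjusted p = 0.072). The Cdkn1b call was also lost with limma on FPKM (-0.11, limma adjusted p of 0.082 to 0.12). The 6 called of 8 stand beside 58.9% called among all tested genes.

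Of the 8 retinoblastoma and ETS family genes whose products bind Id2 or other Id proteins, 3 were higher and 2 lower. Ets2, a transcriptional activator that Id1 can block, was higher by 0.79 (23.5 to 40.6 CPM), Elk4 by 0.46 and Elk3 by 0.21, while Rbl2 was lower at -0.50 and Rb1 at -0.35. Of 6 genes that set Id protein stability, 3 were lower and 1 higher, with Cdc20, an activator of the anaphase-promoting complex, at -1.15 (7.99 to 3.61 CPM) and the complex subunit gene Cdc27 at 0.18 (101 to 115 CPM). Among 15 transcription factor genes known to act on Id promoters, 8 were higher and 5 lower. Over all tested genes 29.0% were higher and 29.9% lower, the shares against which these 3 lists stand. Egr1 was higher by 0.96 (14.8 to 28.8 CPM), Myc by 0.82, Atf3, a partner of SMAD3 in repressing Id1, by 0.75 (10.01 to 16.9 CPM), Zeb2 by 0.63 and Klf4 by 0.60. The edgeR adjusted p of the genes named here was at most 0.00121.

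Since other heart cells also express Id genes, marker genes were read beside them, with 29.0% of all tested genes higher and 29.9% lower as the background of their counts. The summed FPKM of 11 fibroblast markers was 3654 to 3713 in GFP and 3602 to 3849 in OEIRF7, and 2 were called higher and 6 lower. Endothelial markers were present at 79.6 to 84.6 and 85.4 to 93.1 FPKM in sum, with 4 of 9 higher, Kdr (0.79) and Vwf (0.49) among them. Of the same 9, 1 was lower, or 0 lower with library size as the only scaling or without GFP 1, 3 or 4 or OEIRF7 1 or 3. Macrophage markers summed to 198 to 234 and 237 to 273 FPKM, with 3 of 8 higher, including Adgre1 (0.44) and Lyz2 (0.22). Of these 8, 0 were lower, or 1 with a filter of at least 1 count in total or without GFP 4 or OEIRF7 4. The call for Adgre1 was lost with limma on FPKM (0.26 to 0.29, adjusted p of 0.13 to 0.30), and without a filter on those values 1 of the 8 was higher.

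Mural cell markers summed to 28.2 to 30.8 FPKM in GFP and 20.6 to 23.5 in OEIRF7. Mcam alone held 19.6 to 21.6 and 10.2 to 11.6 FPKM of these sums, and the tested markers divided. Of the 5 tested of 7, Notch3 (-1.61) and Mcam (-0.96) were lower, and Cspg4 (1.5) and Rgs5 were the 2 higher. The defining markers Kcnj8 and Higd1b had at most 5 and 3 counts in any library. Epicardial markers summed to 42.1 to 46.6 and 40.6 to 45.3 FPKM, with 2 of 6 tested higher and 2 lower. With DESeq2, or without any single library, 1 was higher. Of 9 cardiomyocyte markers 1 was tested, Tnnt2, which was lower at -0.54, and Myh6 had at most 1 count in any library. The edgeR adjusted p of the markers named with a value was at most 0.00205. The part of these cells in the Id values was not tested.

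The genes whose profile over the 8 libraries lay nearest to that of each Id gene were found by the root mean square (RMS) difference of centred log2 CPM among 10318 other genes with a mean above 5 CPM, or 10319 for Id4, and are given as a description. Nearest to Id1 were Tvp23a (RMS 0.057), Ogdhl (0.081) and Setbp1 (0.085), with log2 fold changes of -0.96, -0.91 and -0.93. Nearest to Id2 were Tbcel (0.040), Metrn (0.041) and the cardiac mesenchyme factor gene Foxc1 (0.042), at -0.64, -0.62 and -0.64.

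Nearest to Id3 were Eva1b (RMS 0.054), Ehd3 (0.064) and Cthrc1 (0.068), a secreted protein gene of activated fibroblasts, with log2 fold changes of -1.08, -1.12 and -1.15. Nearest to Id4 were Spry1 (0.11), a feedback inhibitor of growth factor signalling, the receptor gene Notch3 (0.14) and Kif26b (0.16), at -1.67, -1.61 and -1.73. Id4 had the widest distances and the fewest counts.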

How the data were processed

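Poly(A) RNA of primary murine cardiac fibroblasts was sequenced as 150-base read pairs. The authors trimmed reads with Trimmomatic, aligned them with HISAT2 to GRCm38 (Ensembl 99), counted them per gene with HTSeq-count and computed FPKM with Cufflinks; versions and the strand setting are not given in the sources used here. The deposited table holds raw counts and FPKM rounded to 2 decimals for 8 libraries. Its comparison columns (group means, fold changes and p-values of the authors' own test) were not used. In 121 symbols a text replacement by the authors had put GFP for the letters nc, which were restored.

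Counts were tested with edgeR 4.0.16 in R 4.3.3 (filterByExpr, TMM, quasi-likelihood F-test, Benjamini-Hochberg over 13533 genes), and SE and intervals come from that fit. CPM are counts scaled by library total and TMM. FPKM served levels between genes. Depth was 24454801 to 28658826 counts per library, and the common biological coefficient of variation was 0.0562. Replicates differed beyond sampling noise (chi-square per degree of freedom of 2.91 to 9.94), so none was a repeat deposit. Same-numbered libraries had deviations correlated at 0.0792, 0.0953, 0.138 and 0.104. Differently numbered libraries were not compared in this way, so these values cannot settle whether the numbers pair libraries. The main fit took the libraries as unpaired, and a fit with a replicate block is given among the alternatives. Ratios of Id genes used a prior count of 2. The edgeR fit was checked on simulated counts with a common dispersion and a balanced 2-fold change in a small set of well-counted genes. That check does not cover data with as many changed genes as these, nor genes with few counts. The permutation tests and alternative fits were not checked.

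The members and gene lists were chosen with earlier results of these data known. Named were the Id genes, the E proteins, Irf7, up to 6 called members with the largest change in each list, ligands, receptors and SMADs of the BMP branch, and the 3 nearest profiles of each Id gene. Alternatives were DESeq2 1.42.0, other scalings and filters, a replicate block, limma 3.58.1 on log2 FPKM with pseudocounts of 1 and 0.1, and leaving out each library. A few genes of these lists are not reported here.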

Additional observations from a re-analysis of the deposited data

Results flagged for a closer look

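Within each group of 4 libraries, a gene was looked at again where 1 library stood apart from the other 3 by more than Dixon's 95% limit for the share of the group's range taken up by the gap. Of 184 such groups, for 92 genes, 10 passed, where chance gives about 1 in 20. None was an Id gene. For Grem1 the gap was 0.921 of the range, with 26.3 CPM in OEIRF7 3 against 18.3 to 18.9 in the others. For Bmp4 it was 0.845, with 60.2 CPM in GFP 2 against 49.7 to 51.4. For Tcf4 it was 0.855, with 144 CPM in GFP 1 against 132 to 134. OEIRF7 3 also stood apart for Bhlhe40 (0.833, 334 CPM against 352 to 355), Gdf6 (0.841, 529 CPM against 596 to 609), Tgfb2 (0.865, 28.6 CPM against 31.8 to 32.3) and Ets2 (0.884, 45.4 CPM against 38.5 to 39.3). OEIRF7 2 stood apart for Tgfbr1 (0.868, 90.4 CPM against 80.9 to 82.2) and Cdkn1b (0.938, 45.0 CPM against 42.8 to 43.0), and GFP 3 for Tgfbr2 (0.842, 235 CPM against 250 to 252).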

How the results depend on the processing

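The 4 Id genes stayed lower and past the threshold under each of 17 alternatives, with log2 fold changes of -0.99 to -0.82 for Id1, -0.65 to -0.56 for Id2, -1.12 to -0.99 for Id3 and -1.97 to -0.66 for Id4. The value of -0.66 came from limma on log2(FPKM + 1), where the pseudocount is near the level of Id4. With a replicate block the values were -0.91, -0.62, -1.07 and -1.8, and 4057 genes were called higher and 4154 lower, against 3924 and 4045 without it; the block also brought Gdf6 past the threshold (-0.11, adjusted p = 0.026). Of the 6 differences between Id genes, none changed sign or side without a prior count or with FPKM, and without single libraries, where no test can pass, they kept their sign. Past 2-fold, 631 genes were higher and 527 lower, against 408 higher with 10 counts in every library, 264 and 171 with limma on log2(FPKM + 1), and 264 and 170 with no filter on it. Of 1496 refits of 88 other named genes, 1457 kept direction and side, 25 lost the call, 6 gained it and 8 changed sign. These 8 were for Smad5, which ran from -0.02 to 0.03 as single libraries were left out, and Rgmb, which ran from -0.03 to 0.02 in the same way and stood at 0.01 with library size only and at 0.04, 0.05 and 0.04 with limma. Over all lists 46 to 57 members were called higher (54 in the report) and 39 to 57 lower (57); 16 of 42 counts per list and direction, most of them counts of 3 or fewer, moved by over 1.5 times under some alternative, such as 2 TGF-β targets and 1 pathway brake lower with limma on FPKM. Depth limits the genes with few counts, Id4 (23 to 128 per library) among them.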
